A study of Mus musculus with 6 samples.

Results

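The Bcl2 family of apoptosis regulators was followed in cultured mouse dermal fibroblasts with and without a stabilised form of β-catenin, the protein that carries the canonical Wnt signal to the nucleus. The 10 genes Bcl2, Bcl2l1, Mcl1, Bax, Bak1, Bid, Bcl2l11, Bbc3, Pmaip1 and Bmf were taken by name from the 41126 genes of the mRNA table, and each matched 1 row. Family members act at the outer membrane of mitochondria. Anti-apoptotic members (Bcl2, Bcl2l1 and Mcl1) hold the pro-apoptotic ones in check, the effectors Bax and Bak1 open the membrane so that cytochrome c escapes and caspases are activated, and BH3-only members (Bid, Bcl2l11, Bbc3, Pmaip1 and Bmf) relay stress by binding the other groups. Much of this control acts on the proteins, by binding, cleavage and degradation, which RNA levels do not show.

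RNA sequencing was done on 6 cultures of ventral dermal fibroblasts from mice of a mixed CD1 and C57Bl6 strain at postnatal day 4, with 3 libraries in each group. Control cultures received an adenovirus that makes GFP and are labelled +/+. Gain-of-function (GOF) cultures received an adenovirus that makes Cre recombinase and are labelled Ctnnb1 Δex3/+, an allele that has lost exon 3 and with it the sites that mark β-catenin for degradation. Per the study's methods, control cells carried the same floxed allele, uncut, and every culture was passaged. The label on treatment names the Cre virus for every culture (a multiplicity of infection of 366 to 500 for 6 hours). Per the study's methods, the Cre virus was given at a multiplicity of 366 to 500 and the GFP virus at 366. Since the virus, and possibly its dose, differed between the groups along with the allele, Cre, dose and stabilised β-catenin cannot be told apart here. The time from infection to harvest is stated in the study's results section, as a matter of days, and not in the labels.

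The cultures came from 4 animals. Control replicate 0 and GOF replicate 2 were grown from 1 animal, Control replicate 2 and GOF replicate 0 from another, and Control replicate 1 and GOF replicate 1 from 1 animal each. Libraries held 35980831 to 42834467 fragments assigned to genes. Axin2, a direct target of β-catenin, stood at 0.152 ± 0.0218 FPKM (fragments scaled to transcript length and library size; SD, n = 3) in control and 17.5 ± 2.66 FPKM in GOF, whereas Ctnnb1 itself, whose summed level does not show whether exon 3 was cut, was at 267 ± 16.3 and 263 ± 28.8 FPKM. All 10 listed dermal fibroblast markers reached at least 1 FPKM, with summed levels of 3093 to 3951 FPKM in control and 2572 to 3232 FPKM in GOF libraries. Within that list Dcn fell from 1058 to 330.0 FPKM (edgeR adjusted p = 0.00584) and Col1a2 from 867 to 387 FPKM (0.0375), Vim rose from 798 to 1339 FPKM (0.0280), and the other 7 did not pass. The call of Col1a2 was lost when Control replicates 1 or 2 or GOF replicates 1 or 2 was left out (adjusted p up to 0.118), and that of Vim for Control replicates 1 or 2 or GOF replicates 0 or 2 (up to 0.0945). Keratinocyte markers summed to 0.389 to 0.485 and 0.495 to 0.562 FPKM, endothelial markers to 3.25 to 4.08 and 2.98 to 4.69 FPKM, and pericyte or smooth muscle markers to 15.0 to 24.1 and 17.4 to 34.4 FPKM. Among the endothelial markers Kdr rose from 0.681 to 2.34 FPKM (adjusted p = 0.0110) and Tek fell from 1.94 to 0.425 FPKM (0.0190, and 0.0849 when GOF replicate 0 was left out). Summed levels of 4 further lists, like those of keratinocytes, did not overlap between the groups. Among single genes tested, FPKM did not overlap for 20.3% on the higher side and 19.2% on the lower side. No keratinocyte marker reached 1 FPKM, and the 1 with enough fragments to be tested did not pass (edgeR adjusted p = 0.882). Skeletal muscle markers stood at 23.3 to 27.6 FPKM in control and 138 to 173 FPKM in GOF, nearly all of it Acta1, with Myod1 and Myog near 0. Macrophage markers stood at 2.51 to 3.44 and 4.38 to 7.62 FPKM, where Csf1r was the gene that passed the test and Ptprc was near 0. Adipocyte markers were at 7.18 to 8.95 FPKM in control and 1.80 to 3.17 FPKM in GOF with Adipoq near 0. Most of that was Fabp4, which fell from 7.92 to 2.29 FPKM (edgeR adjusted p = 0.00532). Melanocyte or Schwann markers were at 7.37 to 9.62 and 1.82 to 4.72 FPKM. Of that list Mlana fell from 5.43 to 0.995 FPKM (adjusted p = 0.0176), and the other 4 tested genes did not pass. The call of Mlana was lost when Control replicate 1 or GOF replicate 0 was left out (up to 0.0747). The part of these lists in the members' results was not tested.

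Among the 10 members, Bcl2l1, Bak1 and Pmaip1 were higher and Bmf was lower in GOF fibroblasts, and the other 6 did not pass the test. Passing means an adjusted p under 0.05 in edgeR's quasi-likelihood test, fitted to the fragments of 15462 genes with Benjamini-Hochberg adjustment over all of them. By that rule 3 of 10 members passed higher and 1 of 10 passed lower, where 11.1% of all genes tested passed higher and 10.2% passed lower. With a fold change over 2 required as well, Pmaip1 remained on the higher side and Bmf on the lower side, against 6.69% and 5.64% of all genes tested. The same 4 members were those whose FPKM ranges did not overlap between the groups, which held for 20.3% of genes on the higher side and 19.2% on the lower side. The median log2 fold change of the members was 0.16, against -0.02 over all genes tested. By role, 1 of 3 anti-apoptotic members, 1 of 2 effectors and 1 of 5 BH3-only members passed higher, and the member that passed lower was BH3-only. RNA of a whole culture cannot tell fewer cells of a kind from less RNA per cell.

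**Figure D1:**
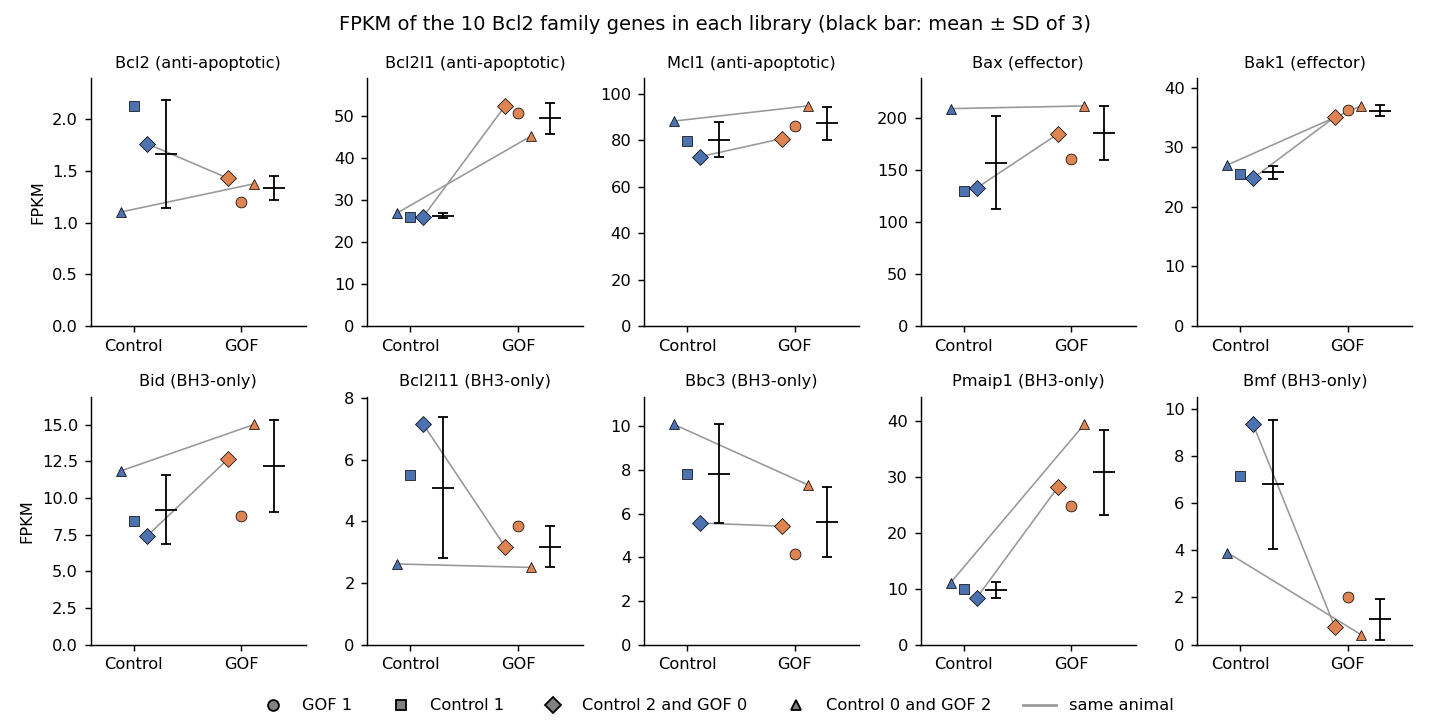
FPKM (linear axis from 0, 1 panel a gene) of the 10 Bcl2 family members in the 3 control and 3 GOF libraries. Points are libraries with 1 symbol an animal, grey lines join cultures of 1 animal, and black bars are the mean ± SD. The points of Bcl2l1, Bak1 and Pmaip1 lie higher in GOF, those of Bmf lie lower, and those of the other 6 members overlap.

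Bcl2l1, which encodes the anti-apoptotic protein Bcl-xL, was at 26.9, 25.9 and 26.0 FPKM in Control replicates 0, 1 and 2 and at 52.3, 50.6 and 45.1 FPKM in GOF replicates 0, 1 and 2. Every GOF library was above every control library. The control mean was 26.3 ± 0.554 FPKM and the GOF mean 49.3 ± 3.74 FPKM (SD, n = 3 each), and the spread of the controls was the smallest of the family relative to its mean (2.11%). edgeR gave a log2 fold change of 0.85 with SE 0.11 and a 95% interval of 0.59 to 1.12, or 1.81-fold, at an adjusted p of 0.00250. An exact two-sided permutation test of the mean FPKM gave p = 0.1, the smallest that 3 against 3 libraries allow. The gene lies on the minus strand of chromosome 2, from 152780668 to 152831728 (GRCm38), with 9 annotated transcripts. Values were summed over them, so the long anti-apoptotic form and the short pro-apoptotic Bcl-xS were not separated.

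Because GOF cells carry stabilised β-catenin, the promoters of the members were searched for the 7-base words that TCF/LEF factors, the DNA-binding partners of β-catenin, are known to prefer. RefSeq promoter windows (250 bases before to 50 bases after a start, GRCm38.p6) were matched for 9 of the 10 members, 16 windows in all, and not for Pmaip1. The words were CTTTGAA, its neighbour CTTTGAT, the version CTTTGTA and finally CTTTGTT, read on either strand, and at least 1 was found in 16.9% of 32851 RefSeq promoter windows. Among members a match was found in 1 of 3 windows of Bcl2l1 and in the window of Bax, and none in the windows of the other 7. The Bcl2l1 window with the match, chr2:152831679-152831978 on the minus strand, is shown with the word in capitals. It reads TACAAAG, which is CTTTGTA on the opposite strand, and its first base is at position -144 from the start.
Bcl2l1: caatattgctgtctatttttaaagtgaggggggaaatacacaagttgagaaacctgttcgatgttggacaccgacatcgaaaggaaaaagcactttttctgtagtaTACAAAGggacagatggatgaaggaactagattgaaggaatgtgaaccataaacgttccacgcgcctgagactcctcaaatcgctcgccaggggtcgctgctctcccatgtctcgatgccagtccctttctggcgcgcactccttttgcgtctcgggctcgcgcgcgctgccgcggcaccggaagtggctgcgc
A word match is a description of the letters in the window. The match in Bax, a member that did not pass the test, has its first base at position -194.

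Bcl2, the founding anti-apoptotic member, had the lowest mean FPKM of the members in control cells. Its level was 1.10, 2.13 and 1.76 FPKM in Control replicates 0, 1 and 2 and 1.43, 1.20 and 1.38 FPKM in GOF replicates 0, 1 and 2. The GOF values lay inside the range of the controls, whose lowest library was Control replicate 0. The log2 fold change was -0.26 (SE 0.22, 95% interval -0.78 to 0.25, edgeR adjusted p = 0.436). Without Control replicate 0 it was -0.48 with an edgeR adjusted p of 0.0491, and with the animal as a block -0.03 with an edgeR adjusted p of 0.929. Bcl2 lies on chromosome 1, from 106538178 to 106714274 on the minus strand, and shares 558 exon bases with the antisense gene D630008O14Rik, which was at 0.204 to 0.636 FPKM. The library kit keeps strand, but whether counting used it is not given in the sources used here, so some fragments of Bcl2 could belong to that gene.

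Mcl1, a short-lived anti-apoptotic protein that binds several BH3-only members, was the most abundant of the anti-apoptotic transcripts. It stood at 88.3, 79.7 and 73.0 FPKM in control and 80.7, 86.4 and 94.8 FPKM in GOF, in the order of the replicates. The groups overlapped, with means of 80.3 ± 7.70 and 87.3 ± 7.10 FPKM. Their difference was a log2 fold change of 0.12 with a 95% interval of -0.18 to 0.42 (edgeR adjusted p = 0.536). Mcl1 lies on the plus strand of chromosome 3, from 95658788 to 95663176.

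Bax, the effector that moves from the cytosol to mitochondria when activated, had the highest FPKM of the family in every library. It was at 209, 130 and 133 FPKM in Control replicates 0, 1 and 2 and at 185, 160 and 212 FPKM in GOF replicates 0, 1 and 2. Control replicate 0 was far above the other controls and inside the GOF range. The means of 157 ± 45.0 and 186 ± 25.8 FPKM gave a log2 fold change of 0.20 (95% interval -0.33 to 0.73, edgeR adjusted p = 0.574). Bax is on the minus strand of chromosome 7, from 45461697 to 45466898, and shares 192 exon bases with Gm45808, a gene annotated on the same strand.

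Bak1, the effector that sits in the mitochondrial membrane, was at 27.1, 25.5 and 24.8 FPKM in control and at 35.2, 36.3 and 37.0 FPKM in GOF libraries. The groups did not overlap and were tight, with means of 25.8 ± 1.14 and 36.2 ± 0.927 FPKM. On the scale of normalised fragments the log2 fold change was 0.39 (SE 0.10, 95% interval 0.15 to 0.63), or 1.31-fold, at an edgeR adjusted p of 0.0324, and the exact permutation test of FPKM gave p = 0.1. This call was near the threshold. With the animal as a block the adjusted p was 0.0642, and the call was lost on leaving out any single library except Control replicate 0. The adjusted p was 0.130 when Control replicate 1 was left out and 0.122 when Control replicate 2 was, and for GOF replicates 0, 1 and 2 it was 0.0970, 0.0677 and 0.0746. Bak1 lies on chromosome 17, from 27019810 to 27029009 on the minus strand. It shares 437 exon bases with Ggnbp1 on the opposite strand, which was at 1.50 to 2.90 FPKM. As for Bcl2, some fragments of Bak1 could belong to the overlapping gene.

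**Figure D2:**
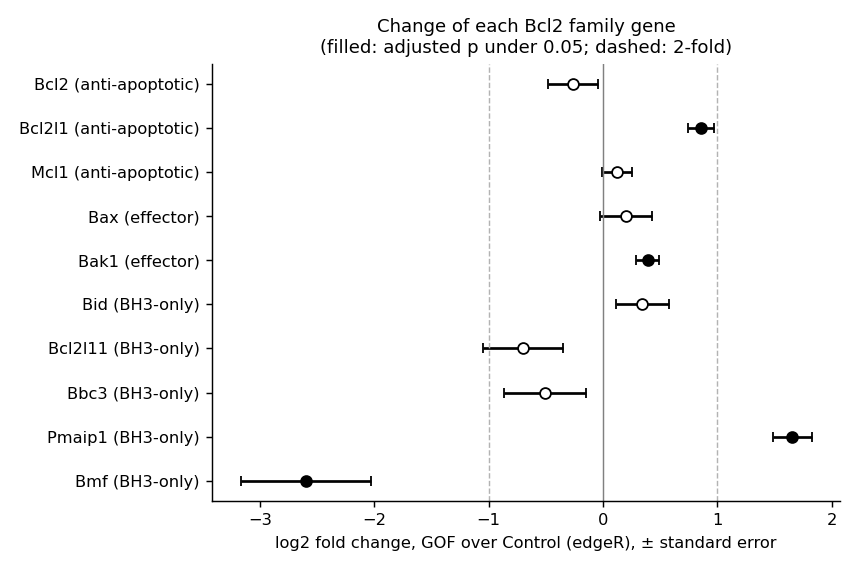
Log2 fold change of GOF over control for each member from edgeR (points, filled where the adjusted p is under 0.05) with standard errors (bars), and dashed lines at a 2-fold change. Filled points are Bcl2l1, Bak1 and Pmaip1 above 0 and Bmf below 0, and the other 6 are open.

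Pmaip1, which encodes the BH3-only protein Noxa, a known target of p53 that neutralises Mcl1, showed the largest rise of the family. It was at 11.1, 9.99 and 8.30 FPKM in Control replicates 0, 1 and 2 and at 28.2, 24.8 and 39.3 FPKM in GOF replicates 0, 1 and 2, from 1021 to 1177 fragments in control and 3124 to 4473 in GOF. The lowest GOF library was above the highest control. The log2 fold change was 1.66 (SE 0.17, 95% interval 1.26 to 2.05), or 3.16-fold, at an edgeR adjusted p of 9.45e-04, with an exact permutation p of 0.1 for FPKM. Pmaip1 passed in all 15 alternative fits, as did Bcl2l1, with log2 fold changes of 1.52 to 1.77 and 0.78 to 0.92. Its position is chromosome 18, from 66458533 to 66465565 on the plus strand.

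Bmf, a BH3-only protein held at the cytoskeleton and freed when cells lose attachment, moved the other way. Its level was 3.91, 7.18 and 9.35 FPKM in Control replicates 0, 1 and 2 and 0.732, 2.03 and 0.425 FPKM in GOF replicates 0, 1 and 2. The groups did not overlap, although the GOF libraries differed severalfold among themselves. The counts behind these values were 466, 1400 and 1578 fragments in control and 159, 322 and 82 in GOF. The log2 fold change was -2.60 (SE 0.57, 95% interval -3.93 to -1.28), or 6.07-fold lower, at an edgeR adjusted p of 0.0172, with an exact permutation p of 0.1 for FPKM. The call was lost when GOF replicate 0 was left out (-2.48, adjusted p = 0.0799), and the value was -3.28 when GOF replicate 1, the highest GOF library, was left out. On log2(FPKM + 1), a scale that shrinks the change of low genes, the limma fit gave -1.93. The FPKM that a fragment of Bmf was worth, relative to each library's median gene, differed 1.58-fold between libraries, more than for 98.3% of 11692 genes with at least 50 fragments in every library, where the median gene differed 1.125-fold. It was highest in Control replicate 0 and lowest in GOF replicate 0.

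The gene lies on chromosome 2, from 118528757 to 118549687 on the minus strand, with 8 annotated transcripts. The 1 of its 3 RefSeq promoter windows closest to the annotated gene start, chr2:118549637-118549936, is shown because Bmf was the member with the largest fall, and none of the TCF/LEF words was found in any of the 3.
Bmf: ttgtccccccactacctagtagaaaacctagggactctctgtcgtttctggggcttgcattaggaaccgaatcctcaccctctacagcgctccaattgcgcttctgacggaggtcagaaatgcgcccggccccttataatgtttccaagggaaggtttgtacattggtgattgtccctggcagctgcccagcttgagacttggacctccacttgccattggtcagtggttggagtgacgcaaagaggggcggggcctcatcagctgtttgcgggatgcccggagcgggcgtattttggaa
Nothing follows from the missing words about the factors, since they can act outside these 300 bases.

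Bcl2l11, which encodes Bim, a BH3-only protein that binds all anti-apoptotic members, was at 2.62, 5.51 and 7.15 FPKM in Control replicates 0, 1 and 2 and at 3.18, 3.85 and 2.50 FPKM in GOF replicates 0, 1 and 2. Control replicate 0 was within the GOF range and the other controls were above it. A log2 fold change of -0.70 with a 95% interval of -1.52 to 0.11 was fitted (edgeR adjusted p = 0.201). Without Control replicate 0 it was -1.01 with an edgeR adjusted p of 0.0302. That fit kept GOF replicate 2, the lowest GOF library, which came from the same animal as Control replicate 0. With the animal as a block the log2 fold change was -0.72 with an edgeR adjusted p of 0.103. Bim is made as several splice forms, which the summed level over 8 annotated transcripts does not separate. Its position is chromosome 2, from 128126038 to 128162547 on the plus strand.

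Bbc3, which encodes Puma and is, like Pmaip1, a known p53 target, did not follow Pmaip1. It was at 10.1, 7.84 and 5.57 FPKM in control and at 5.43, 4.13 and 7.33 FPKM in GOF libraries, and the ranges overlapped. The log2 fold change was -0.51 with a 95% interval of -1.34 to 0.33 (edgeR adjusted p = 0.358), an interval that lies wholly below the one of Pmaip1. The worth of a Bbc3 fragment in FPKM differed 1.49-fold between libraries, more than for 97.3% of genes. FOXO factors are known activators of Bcl2l11 and Bbc3. Their core word TGTTTAC, on either strand, was in 3.65% of all RefSeq windows, a share per window and not per gene. It was in 1 of 2 windows of Bcl2l11 and in 1 of 3 windows of Bbc3. No window of the other 7 members searched held it. A match describes the letters only, and any part of FOXO factors in these levels was not tested. Bbc3 lies on chromosome 7, from 16308393 to 16318205 on the plus strand.

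Bid, the BH3-only protein that caspase-8 cleaves to link death receptors to mitochondria, was at 11.8, 8.40 and 7.37 FPKM in control and at 12.7, 8.78 and 15.0 FPKM in GOF libraries. The ranges overlapped, with Control replicate 0 above GOF replicate 1. edgeR put the log2 fold change at 0.34 (95% interval -0.19 to 0.88, adjusted p = 0.328). Bid lies on chromosome 6, from 120891930 to 120916853 on the minus strand, and shares 628 exon bases with Bcl2l13 on the opposite strand. Bcl2l13 was at 4.27 to 4.63 FPKM in control and at 5.67 to 5.77 FPKM in GOF libraries. As for Bcl2, some fragments of Bid could belong to the overlapping gene.

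FPKM is per transcript length, so levels of different members can be set side by side as far as the lengths behind it hold. By fragments Mcl1 (10085 to 12642) was above Bax (4263 to 7405) in every library, so the place of Bax in the order rests on those lengths. In control cells the order of mean FPKM was Bax, Mcl1, Bcl2l1, Bak1, Pmaip1, Bid, Bbc3, Bmf, Bcl2l11 and Bcl2. Bcl2l1 and Bak1 overlapped in their library ranges, as did each neighbouring pair from Pmaip1 to Bcl2l11, and the remaining neighbours were separate. In GOF cells the order was Bax, Mcl1, Bcl2l1, Bak1, Pmaip1, Bid, Bbc3, Bcl2l11, Bcl2 and Bmf, where Bak1 overlapped with Pmaip1 and Bcl2 with Bmf. Bmf, at 6.81 ± 2.74 FPKM in control, was thus the lowest member in GOF at 1.06 ± 0.855 FPKM. Pmaip1 was at 9.79 ± 1.40 FPKM in control and 30.8 ± 7.59 FPKM in GOF, where it was below Bak1 in GOF replicates 0 and 1 and above it in GOF replicate 2.

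**Figure D3:**
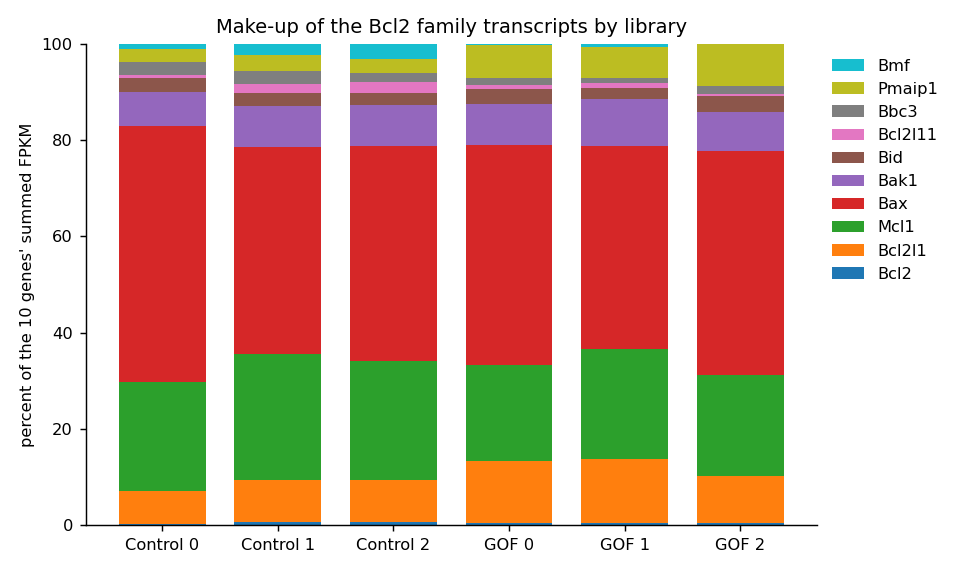
Share of the members' summed FPKM held by each member in the 6 libraries, stacked to 100%. Pmaip1 and Bcl2l1 take a larger share in each GOF library than in any control and Bmf and Bbc3 a smaller one. The FPKM of Bbc3 itself overlaps between the groups, and Bbc3 did not pass the test. A share also depends on the sum, which was 296 to 392 FPKM in control and 379 to 455 FPKM in GOF. Bax and Mcl1 hold most of the sum in all 6.

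Shares of the summed FPKM of the 10 members are given without a test. Anti-apoptotic members held 33.1% ± 3.09 of the sum in control and 33.6% ± 2.73 in GOF (SD, n = 3), effectors 55.0% ± 4.64 and 53.7% ± 1.50, and BH3-only members 11.9% ± 1.58 and 12.7% ± 1.37. The differences between these role shares were smaller than the spread between control libraries. The make-up within roles differed more. Bcl2l1 held 24.3% ± 1.36 of the anti-apoptotic sum in control and 35.8% ± 3.55 in GOF, while Mcl1 held 74.1% ± 1.75 and 63.2% ± 3.58. Among all members, Pmaip1 went from 2.98% ± 0.286 to 7.39% ± 1.11 and Bmf from 2.18% ± 1.09 to 0.271% ± 0.235.

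**Figure D4:**
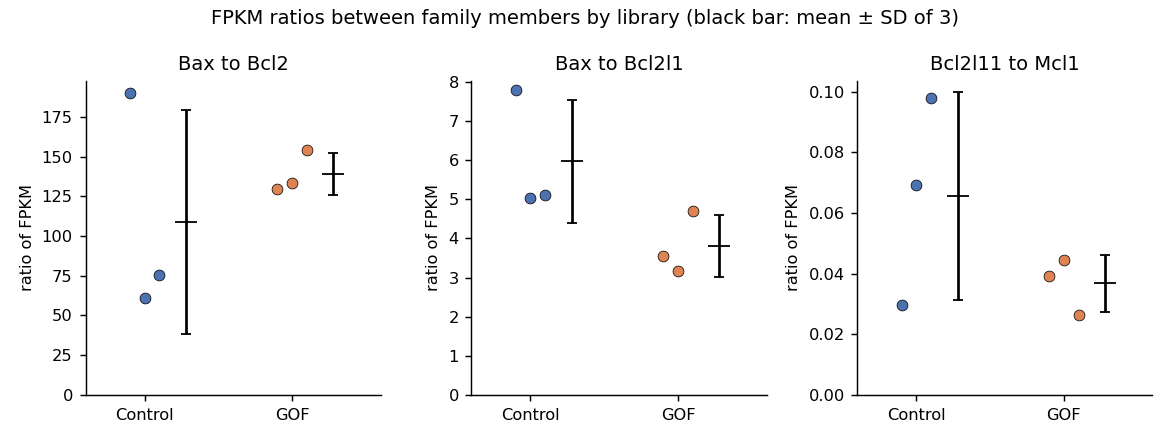
FPKM ratios of Bax to Bcl2, Bax to Bcl2l1 and Bcl2l11 to Mcl1 in each library, with points for libraries and black bars for the mean ± SD. Bax to Bcl2l1 is 5.03 to 7.79 in control and 3.17 to 4.70 in GOF, and the groups overlap for the other ratios.

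The ratio of Bax to Bcl2, often quoted as a gauge of readiness for apoptosis, was 190, 61.2 and 75.3 in Control replicates 0, 1 and 2 and 130, 133 and 154 in GOF replicates 0, 1 and 2, so the control libraries spanned all GOF values. With Bcl2l1 in place of Bcl2 the ratio was 7.79, 5.03 and 5.11 in control and 3.54, 3.17 and 4.70 in GOF. The mean ratio of Bax to Bcl2 in GOF was 1.28 times that of control, a value that rested on single control libraries, since it was 2.04 when Control replicate 0 was left out and 1.05 when Control replicate 1 was. It also had no common direction within the animals that gave both cultures, going from 75.3 to 130 in one and from 190 to 154 in the other. For Bax to Bcl2l1 the mean ratio in GOF was 0.637 times that of control, and 0.562 to 0.750 times with any single library left out. The ratio of Bcl2l11 to Mcl1 was 0.0296, 0.0692 and 0.0980 in control and 0.0394, 0.0446 and 0.0264 in GOF. The ratios were not tested. Each is of RNA levels and says nothing of the proteins.

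For the animals that gave a culture to both groups, the change could be read within an animal. On the log2 scale of FPKM, Pmaip1 was higher in GOF by 1.77 in the animal of Control replicate 2 and GOF replicate 0 and by 1.83 in the animal of Control replicate 0 and GOF replicate 2. In the same order Bcl2l1 was higher by 1.01 and 0.75 and Bak1 by 0.50 and 0.45, and Bmf had differences of -3.67 and -3.20. The signs of these 4 members were already fixed by groups that do not overlap and add no support. For Bmf the relative worth of a fragment in FPKM was 1.02 and 0.803 in Control replicate 2 and GOF replicate 0. It was 1.27 and 0.888 in Control replicate 0 and GOF replicate 2. This made the differences of Bmf larger on the FPKM scale in both animals. Of the 10 members, 9 had the same sign in both animals, as did 73.2% of all genes tested, and the exception was Bcl2 at -0.31 and 0.32. Members with the same sign could still differ in size, as Bcl2l11 did at -1.17 and -0.06 and Bax at 0.48 and 0.02.

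The wider apoptosis pathway was read from lists of named genes in the same fit. The counts of each list stand against 11.1% of all genes tested that passed higher and 10.2% that passed lower. Of 16 other Bcl2 family genes, 9 had enough fragments to be tested, of which 2 passed higher and 1 lower. Bcl2l15 rose from a mean of 0.0740 to 0.344 FPKM, a very low level (log2 fold change 1.93, edgeR adjusted p = 0.0181). Becn1, which encodes the autophagy protein Beclin 1, rose from 50.3 to 72.2 FPKM (0.45, adjusted p = 0.0202), and Bcl2l12 fell from 6.89 to 4.19 FPKM (-0.75, adjusted p = 0.0333). The median log2 fold change of the tested genes of this list was 0.05. Each of these calls was lost when some library was left out: that of Bcl2l15 for Control replicate 1 or GOF replicate 2 (adjusted p up to 0.0719), that of Becn1 for any library but Control replicate 0 (up to 0.110), and that of Bcl2l12 for Control replicates 1 or 2 or GOF replicates 0 or 1 (up to 0.118). With the animal as a block their adjusted p was 0.0793, 0.0547 and 0.102.

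Downstream of mitochondria, 1 of 13 caspase and apoptosome genes passed higher and 2 passed lower, near the 11.1% and 10.2% of all genes tested. Their median log2 fold change was -0.08. Aifm1, a mitochondrial flavoprotein that can act in caspase-independent death, rose from 19.4 to 28.7 FPKM (0.54, edgeR adjusted p = 0.0354). Casp9, the caspase activated by the apoptosome, fell from 4.71 to 3.09 FPKM (-0.66, adjusted p = 0.0324), and Casp2 fell from 6.99 to 4.33 FPKM (-0.73, adjusted p = 0.0185). Of 5 inhibitor of apoptosis genes, 2 passed lower and 3 did not pass. Birc5, which encodes survivin and also serves in cell division, fell from 11.4 to 4.51 FPKM (-1.35, adjusted p = 0.0112), and Birc2 fell from 17.0 to 12.3 FPKM (-0.43, adjusted p = 0.0286). Birc5 passed whichever library was left out. Casp9 was lost for any library but Control replicate 0 (adjusted p up to 0.103) and Aifm1 for any but GOF replicate 2 (up to 0.115). Casp2 was lost for Control replicates 1 or 2 or GOF replicates 0 or 2 (up to 0.0760), and Birc2 for Control replicates 1 or 2 or GOF replicates 0 or 1 (up to 0.123). With the animal as a block Aifm1 and Birc2 had an adjusted p of 0.0719 and 0.0795.

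In the death receptor branch, 2 of 8 tested genes passed higher and none lower. They act against each other. Tnfrsf10b, the mouse receptor for the death ligand TRAIL and a known p53 target, rose from 8.83 to 19.8 FPKM (1.15, edgeR adjusted p = 0.00341), and Cflar, which blocks caspase-8 at the receptor, rose from 46.4 to 66.1 FPKM (0.59, adjusted p = 0.0104). Of 5 genes for turnover of the Mcl1 protein, only Fbxw7, a ubiquitin ligase subunit, passed, from 7.46 to 15.6 FPKM (0.96, adjusted p = 0.0162), and it was lost when Control replicate 1 or GOF replicate 0 was left out (adjusted p up to 0.0546). Of 8 tested transcription factor genes known to act upstream of the family, 0 passed in edgeR or DESeq2, and 1 was lower at an unadjusted p under 0.05. Trp53, the gene of p53, had a log2 fold change of 0.75 and an adjusted p of 0.199.

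**Figure D5:**
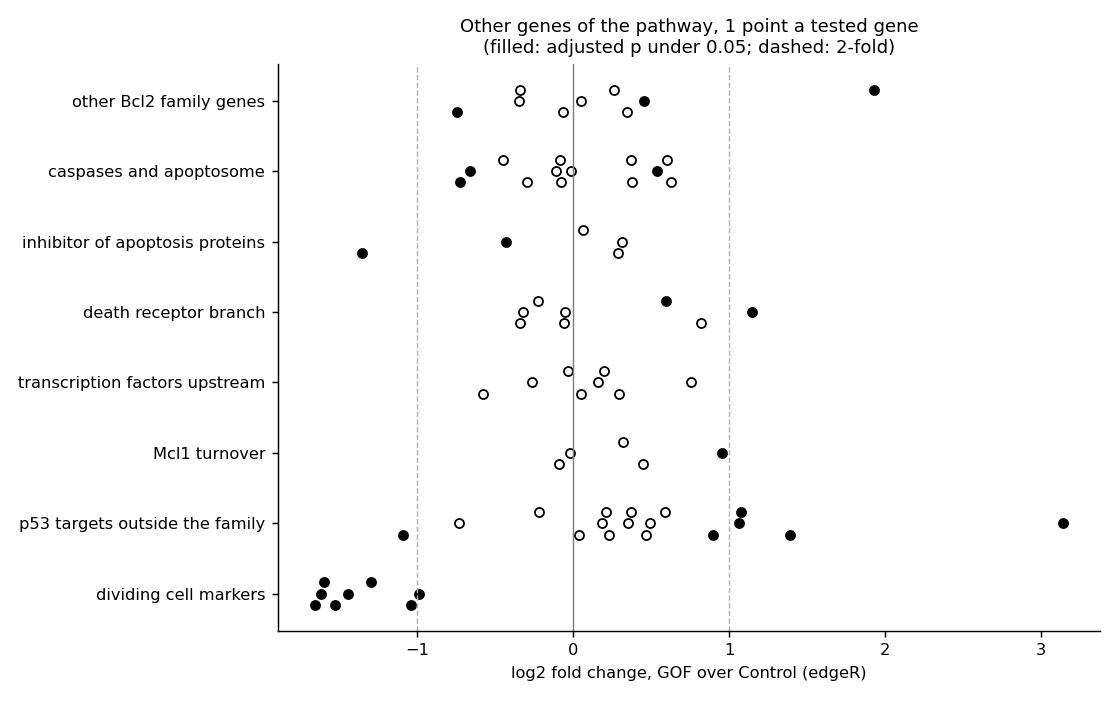
Log2 fold change of GOF over control for the tested genes of each pathway list (points, filled where the adjusted p is under 0.05), and dashed lines at a 2-fold change. The 8 dividing cell markers lie below 0, and the other lists hold genes on both sides of 0.

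Of 17 targets of p53 outside the family, 5 passed higher and 1 lower, against 11.1% and 10.2% of all genes tested. Their median log2 fold change was 0.37. Mdm2, which encodes the ubiquitin ligase that degrades p53, rose from 64.6 to 162 FPKM (1.39, edgeR adjusted p = 0.00487). Polk, a DNA polymerase that copies past damage, rose from 13.7 to 26.0 FPKM (0.90, adjusted p = 0.00389), and Sesn1, a stress-induced regulator of growth signals, fell from 5.66 to 2.53 FPKM (-1.09, adjusted p = 0.00303). The remaining genes that passed, named after their values were seen, were Cdkn1a at 78.5 and 161 FPKM (1.06), Perp at 1.99 and 18.0 FPKM (3.14) and Ccng1 at 347 and 746 FPKM (1.08). Of these 6, Ccng1 was lost when Control replicates 1 or 2 or GOF replicate 0 was left out (adjusted p up to 0.0930). Of Pmaip1, Bbc3 and Bax, which are known p53 targets within the family, Pmaip1 passed higher and Bbc3 and Bax did not pass. The other members were not sorted by this trait.

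Dividing cell markers fell together, with 8 of 8 passing lower and a median log2 fold change of -1.49. Mki67, a protein of cycling cells, fell from 6.15 to 1.98 FPKM (-1.65, edgeR adjusted p = 2.98e-04), and Plk1 and Top2a, both needed for mitosis, had log2 fold changes of -1.44 and -1.59 (adjusted p = 0.00176 and 0.00223). The summed level of the list was 98.0 to 165 FPKM in control and 47.3 to 54.2 FPKM in GOF libraries. Ccnb1 and Ccna2 were lost when GOF replicate 0 was left out (adjusted p = 0.0507 and 0.0818) and Cdk1 when any GOF library was (up to 0.143). The part of this list in the members' change was not tested. Of the 25 pathway genes that passed, 13 did so whichever library was left out. With the animal as a block 20 did, in a fit that rests on the animals with a culture in both groups.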

How the data were processed

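Per the labels and the study's methods, reads were aligned to mm10 with TopHat and summarised per gene with Cuffdiff (versions not given in the sources used here). The authors deposited, per library and gene, estimated counts of fragments (4.948% are not whole numbers) and FPKM. A second deposited table, of long non-coding RNA, was not used, and 0 columns of values were left unmapped. Symbols came from GENCODE M21 (97.9% of IDs matched), and 32 genes with a failed Cuffdiff status were left out.

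Estimated counts were rounded and tested with edgeR 4.0.16 (R 4.3.3; TMM, filterByExpr, quasi-likelihood) on 3 control and 3 GOF libraries, using the deposited values. Alternatives used DESeq2 1.42.0, limma 3.58.1 on log2(FPKM + 1) and log2(FPKM + 0.1), other scalings and filters, blocks, and each library left out. Scripts were tested on simulated data. FPKM differences were tested by exact permutation. A search with BLAST 2.17.0 for transcripts of other loci at 95% identity over 200 bases found 0 for the members, beside the overlapping genes named.

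All 10 members are named. Of each other list up to 3 passing genes with the smallest adjusted p are named by rule. Further genes (Cdkn1a, Perp, Ccng1, Ccnb1, Ccna2, Cdk1, Trp53, the marker genes named as near 0 and the genes that overlap members) were named after their values were seen. The members and lists were chosen with earlier results of these data known. Replicates are separate cultures. Because 2 of the 4 animals gave a culture to each group, libraries were checked for pairing. Libraries of 1 animal deviated together from their group means (r = 0.415 and 0.508 across genes), a pairing that comes from the animal numbers in the labels.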

Additional observations from a re-analysis of the deposited data

How the results depend on the processing

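No member changed direction under any of the 15 alternatives. Of the members' calls, 10 were lost (9 for Bak1 and 1 for Bmf) and 2 were gained (Bcl2 and Bcl2l11, each without Control replicate 0). Members called numbered 2, and 4 with an adjusted p under 0.05 and no minimum fold change. Leaving out 1 library gave 1 to 3, with 1 without GOF replicate 0. All genes called numbered 1906, against 877 with limma on log2(FPKM + 1), 3281 with no minimum fold change, and 1296 to 1896 with 1 library left out. Pathway genes called numbered 15, against 9 with limma on log2(FPKM + 1), 25 with no minimum fold change, and 11 to 16 with 1 library left out. The cause was not tested, beyond the offset of 1 FPKM that shrinks changes of low genes.

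Replicate numbers do not mark the same animal in the groups, and deviations of same-numbered libraries correlated at -0.456, 0.031 and -0.473. With a replicate block by that number 1421 genes, 2 members and 12 pathway genes were called. With a replicate block by animal these were 2008, 2 and 17. Among members the block by animal changed the call of Bak1 and of no other.

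With 3 libraries a group, exact permutation cannot go below p = 0.1, so calls on single members rest on the spread shared across genes. Intervals of the 6 members that did not pass are wide for Bcl2l11 and Bbc3, and changes inside them were not detectable here.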

Other observations

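The animal of Control replicate 0 and GOF replicate 2 gave the highest or the lowest library of both groups for 8 of the 10 Bcl2 family members, a count made after the values were seen. Bax, Bak1, Mcl1, Bid, Bbc3 and Pmaip1 were highest in both of its cultures, and Bcl2l11 and Bmf were lowest in both. Among all genes tested, this animal held the same extreme in both groups for 43.5% (24.8% highest and 18.7% lowest). The other animal with a culture in each group did so for 2 members, Mcl1 and Bak1, which were lowest in both of its cultures, and for 30.1% of all genes tested. Relations between members across the libraries therefore rest on few animals, and no correlation between members was computed.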
